A study of Homo sapiens with 12 samples.

Results

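The 9 growth-responsive transcription factor genes described here are FOS, FOSL1 and FOSL2 of the FOS family, JUN, JUNB and JUND of the JUN family, EGR1, and MYC and MYCN of the MYC family. They were chosen by symbol among the 23500 genes listed in the count table, each symbol had 1 entry, and all 9 passed the filter on low counts (a summed count of at least 10 over the libraries). Their levels were followed in 12 RNA sequencing libraries, 3 in each of 4 groups, to ask how these genes differed between a medium with methionine and one with its precursor, and between cells that do or do not depend on methionine. The groups were HEK293T cells after 12 h in +Met medium, HEK293T cells after 12 h in −Met+Hcy medium, in which homocysteine takes the place of methionine, and R1 cells after 12 h in each of the same media. HEK293T is a human embryonic kidney line that carries adenovirus genes and the SV40 large T antigen, and both lines share these. R1 is a single clone of HEK293T that was isolated for growth in −Met+Hcy medium, so a difference between R1 and HEK293T cannot be told apart from a difference of that clone, and its libraries are titled R1 but carry HEK293T in the field for the line. Both media were made with dialyzed serum, vitamin B12, glutamine and cysteine. The methods of the study also name HEK293T cells with HA-tagged PP2Ac, and the labels do not say whether those were the cells sequenced.

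The products of these genes are sequence-specific transcription factors that cells make in response to serum, growth factors and stress. FOS and JUN proteins pair through leucine zippers to form AP-1, which binds DNA as a dimer: JUN proteins can pair with each other, and FOS proteins need a JUN partner. EGR1 is a zinc finger protein. MYC and MYCN pair with MAX and bind E-boxes, and MYC is known for driving ribosome production and growth. FOS, EGR1 and JUNB are immediate-early genes, which serum response factor (SRF) and its cofactors can switch on within minutes through CArG boxes, and their mRNAs are short-lived. In HEK293 lines the adenovirus E1A protein is known to act on several of these genes.

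Upstream sequences are shown for FOS and EGR1, whose levels moved together among the R1 libraries, and for JUN and JUND, the AP-1 genes that passed the test in at least 1 comparison. Each is the 250 bases before the RefSeq start of the gene on GRCh38.p14, printed 5′ to 3′ on the strand of the gene, with the motif matches in capitals. EGR1 is at chr5:138465229-138465478 on the plus strand, FOS at chr14:75278578-75278827 on the plus strand, JUN at chr1:58784048-58784297 on the minus strand and JUND at chr19:18281623-18281872 on the minus strand.
EGR1: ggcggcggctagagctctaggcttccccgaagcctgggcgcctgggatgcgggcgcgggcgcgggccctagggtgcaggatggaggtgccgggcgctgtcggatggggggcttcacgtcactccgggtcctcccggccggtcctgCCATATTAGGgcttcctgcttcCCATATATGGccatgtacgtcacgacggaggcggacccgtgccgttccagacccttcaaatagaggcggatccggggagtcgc
FOS: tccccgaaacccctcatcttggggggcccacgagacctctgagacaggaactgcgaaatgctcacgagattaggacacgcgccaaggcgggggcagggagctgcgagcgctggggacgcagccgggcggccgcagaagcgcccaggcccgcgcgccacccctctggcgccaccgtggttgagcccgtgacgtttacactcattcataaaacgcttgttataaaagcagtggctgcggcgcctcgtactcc
JUN: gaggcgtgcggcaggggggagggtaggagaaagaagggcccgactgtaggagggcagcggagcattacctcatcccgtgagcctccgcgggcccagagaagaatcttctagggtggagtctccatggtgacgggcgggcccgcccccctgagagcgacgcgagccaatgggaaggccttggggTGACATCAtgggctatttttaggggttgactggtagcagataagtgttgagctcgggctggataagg
JUND: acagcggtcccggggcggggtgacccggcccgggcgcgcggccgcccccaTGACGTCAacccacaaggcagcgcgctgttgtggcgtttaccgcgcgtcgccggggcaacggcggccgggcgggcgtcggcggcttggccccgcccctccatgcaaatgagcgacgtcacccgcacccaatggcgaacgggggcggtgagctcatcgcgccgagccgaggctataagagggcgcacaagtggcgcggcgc
The EGR1 window holds 2 CArG boxes, the first from 105 to 96 and the second from 83 to 74 bases before the start. A CArG box was found in 1.16% of 35116 windows of this length. The JUN window holds the AP-1 and ATF site TGACATCA from 67 to 60 bases before the start, a motif found in 2.37% of windows, and the JUND window holds the CRE TGACGTCA from 200 to 193 bases before the start, found in 1.65% of windows. TGACTCA (the AP-1 site, in 4.2% of windows), CACGTG (the E-box, 6.34%), GCGTGGGCG (the EGR1 site, 0.72%) and TGATGNAA (a CEBP and ATF element, 3.14%) were searched on both strands as well. None of these had a match in the windows of the 7 genes searched, all but FOSL1 and MYC. The FOS, FOSL2, JUNB and MYCN windows held none of the 7 motifs, which says only that those letters are not in those 250 bases.

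Levels and changes are on different scales. Levels are given as CPM, the count of a gene as a share of the sum of its library, scaled to a common total, and totals ran from 12664158 to 18771349 counts. Changes are log2 fold changes with their standard error (SE), fitted by edgeR to the counts of all 17162 genes tested, after TMM scaling, which sets the bulk of genes equal between libraries. TMM factors were 0.828 to 0.882 in HEK293T cells in +Met and 0.93 to 1.12 elsewhere. Against that group the scaling makes a fitted rise smaller than the ratio of the CPM, and a fitted fall larger. MYC, for example, was 5.9-fold lower in R1 cells in +Met as fitted and 4.62-fold lower by mean CPM. With library totals alone the median log2 fold change of all genes between media in HEK293T cells was 0.33, against 0.03 with TMM. A call needed a log2 fold change beyond 1 in either direction together with a p under 0.05 in the quasi-likelihood test of edgeR, adjusted after Benjamini-Hochberg over all genes tested and written as edgeR adjusted p from here on. The labels number the replicates and do not say that they were separate cultures, so these p-values measure the spread between libraries, which may be technical. R1 −Met+Hcy replicate 3 stood apart from the rest: Spearman's rho between GC content and the deviation from the other libraries of its group was -0.74 over 11043 genes, against -0.34 to 0.54 in the other 11 libraries. Leaving it out lowered the common dispersion of the model from 0.109 to 0.0349. Results that rest on it are given with and without it. All 6 HEK293T markers examined were detected in the 12 libraries. The 6 markers of basal breast epithelium summed to 0.235 CPM at most, with KRT5, KRT6A and KRT14 at 0 throughout, and 4 leukocyte markers to 4.87 CPM at most. The 6 HEK293T markers summed to 732.3 to 844.4 CPM in HEK293T cells in +Met and 460.6 to 583.4 CPM in −Met+Hcy, and 4 fibroblast markers to 24.5 to 31.0 and 42.8 to 63.0 CPM. In −Met+Hcy the first sum was thus lower and the second higher, both without overlap, and MYC and JUN were higher. In CPM 38.6% of all genes were all higher in that comparison. In R1 cells the same sums were 731.3 to 1040.7 and 620.3 to 932.2 CPM, and 50.6 to 73.3 and 31.9 to 90.3 CPM. The part of these markers in the results was not tested. In RNA from whole cultures, fewer cells of a kind and less RNA per cell cannot be told apart.

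**Figure D1:**
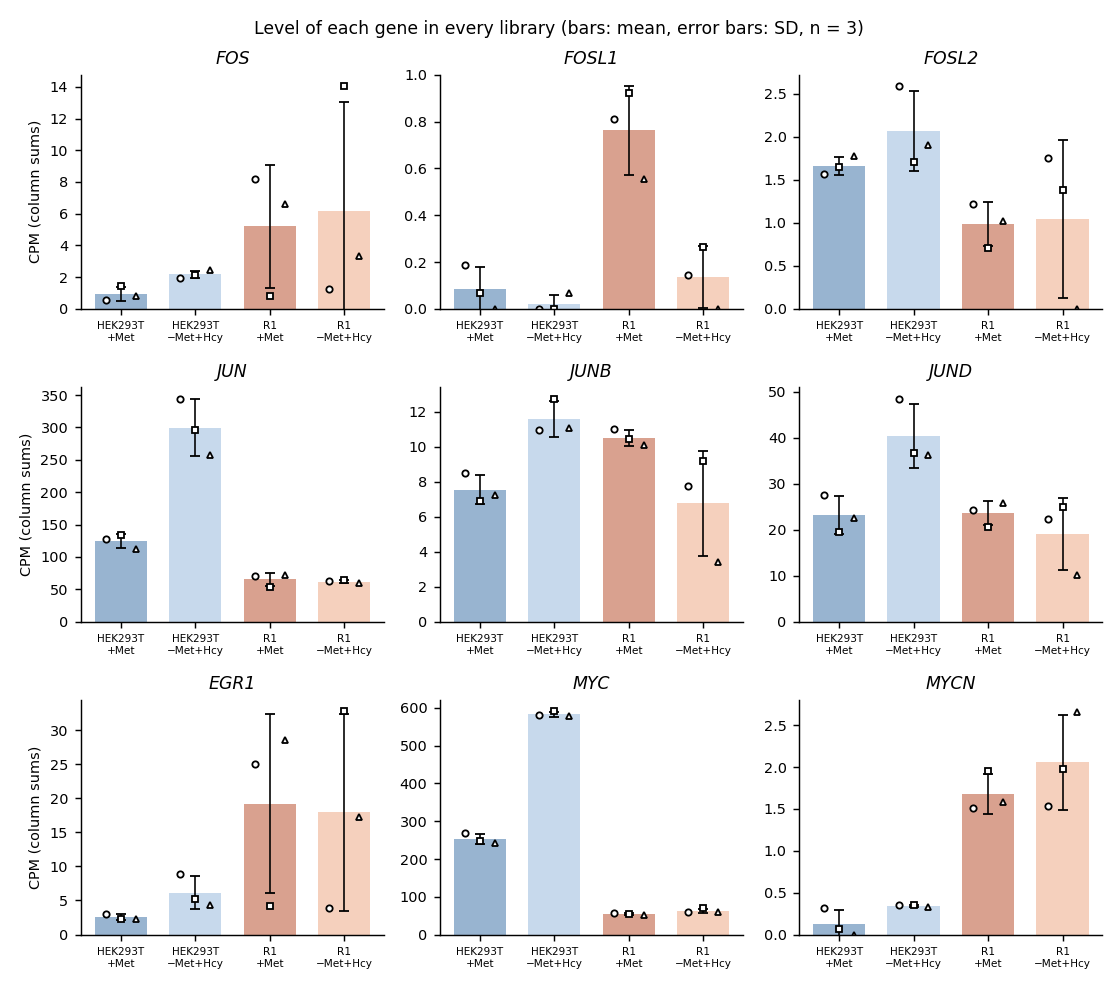
Level of the 9 genes in CPM (vertical axes, each from 0) in the 4 groups (horizontal axis). Bars are means, error bars are SD over 3 libraries (cut at 0 where they pass it), and circles, squares and triangles are replicates 1, 2 and 3. MYC stands near 583.4 CPM in HEK293T cells in −Met+Hcy and near 54.8 CPM in R1 cells in +Met, and the R1 libraries of FOS and EGR1 are widely spread.

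Per kilobase of the canonical transcript, MYC was the most abundant of the 9 in HEK293T cells, at 68.0 ± 3.75 CPM per kb in +Met and 156.8 ± 1.77 in −Met+Hcy (SD, n = 3). JUN followed with 38.2 ± 3.44 and 92.1 ± 13.3, then JUND with 12.0 ± 2.15 and 21.0 ± 3.62 CPM per kb. In both media of HEK293T cells the next genes in order were JUNB, EGR1, FOS and FOSL2, each without overlap of its libraries with the next, and MYCN and FOSL1 came last. FOSL1 and MYCN overlapped in +Met. In R1 cells in +Met, JUN stood first with 20.04 ± 3.22 CPM per kb and MYC second with 14.7 ± 0.635, without overlap. In R1 cells in −Met+Hcy the libraries of JUN (19.0 ± 0.845) and MYC (17.0 ± 1.39) overlapped. EGR1 and JUNB overlapped in R1 cells in both media, as did FOS and MYCN, and JUND, EGR1, JUNB and FOS each overlapped the next of these in −Met+Hcy. The mRNA of JUN itself thus exceeded those of FOS, FOSL1 and FOSL2 per length in every group.

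MYC had the smallest p of the 9 genes between the lines in both media. The factor is encoded at chr8:127735434-127742951 on the plus strand of GRCh38, in 3 exons. In HEK293T cells it was measured at 269.1, 246.5 and 243.7 CPM in +Met and at 581.3, 590.8 and 578.1 CPM in −Met+Hcy. In R1 cells it was at 56.7, 55.5 and 52.1 CPM in +Met and at 60.0, 69.3 and 60.8 CPM in −Met+Hcy. All HEK293T libraries lay above all R1 libraries, and within each line the −Met+Hcy libraries lay above the +Met libraries. MYC rose in HEK293T cells in −Met+Hcy by 0.91 on the log2 scale (SE 0.155, edgeR adjusted p = 0.00616), which is 1.88-fold and stays under the fold threshold for a call. In R1 cells the change was 0.26 (SE 0.155, edgeR adjusted p = 0.642). The difference between these responses was -0.65 (SE 0.219) with an edgeR adjusted p of 0.371, and with DESeq2 the adjusted p of the same difference was 0.0497. With the GC and length trend removed the difference was -0.53 (edgeR adjusted p = 0.188). With R1 −Met+Hcy replicate 3 left out as well it was -0.66 (edgeR adjusted p = 0.0259). Between the lines, MYC was lower in R1 cells by 5.9-fold in +Met (log2 fold change -2.56, SE 0.164, edgeR adjusted p = 6.84e-06) and by 9.29-fold in −Met+Hcy (log2 fold change -3.22, SE 0.168, edgeR adjusted p = 1.46e-06). Both calls between the lines held under 22 of 22 alternatives.

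MYCN, the MYC paralog of neural and embryonic tissue, went the other way between the lines, at far lower counts. It had 5, 1 and 0 counts in HEK293T cells in +Met, 5, 6 and 5 in −Met+Hcy, 26, 36 and 20 in R1 cells in +Met and 21, 30 and 50 in −Met+Hcy. Every R1 library was above every HEK293T library. MYCN was higher in R1 cells in +Met, with a log2 fold change of 3.30 (SE 0.796, edgeR adjusted p = 0.0222), and in −Met+Hcy, with 2.57 (SE 0.722, edgeR adjusted p = 0.0338). These calls were kept in 17 and 14 of 22 alternatives. Over the fits that left out 1 library the log2 fold change ran from 2.73 to 5.10 in +Met, where HEK293T cells held 6 counts in all, and from 2.22 to 2.78 in −Met+Hcy. Between media the log2 fold change was 1.09 in HEK293T cells (SE 0.831, edgeR adjusted p = 0.476) and 0.36 in R1 cells (SE 0.653, edgeR adjusted p = 0.85). The mean of MYCN per length in R1 cells in +Met, 0.643 ± 0.0921 CPM per kb, stayed under that of MYC in the same cells. In GENCODE 98 exon bases of MYCN overlap the antisense gene MYCNOS, 194 of MYC overlap CASC11 and 259 of JUNB overlap HOOK2, and it is not given whether the counting used strand, so reads of these stretches cannot be assigned to 1 gene.

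JUN was the AP-1 gene with the highest level per length in all 4 groups. JUN is a single-exon gene on the minus strand at chr1:58776845-58784048 and was measured in HEK293T cells at 127.3, 133.9 and 112.1 CPM in +Met and at 344.7, 296.8 and 258.1 CPM in −Met+Hcy. In R1 cells it was at 70.8, 53.2 and 71.9 CPM in +Met and at 62.1, 64.6 and 59.1 CPM in −Met+Hcy. In HEK293T cells the media did not overlap, in R1 cells they did, and all R1 libraries were below all HEK293T libraries. JUN rose in HEK293T cells in −Met+Hcy by 0.97 on the log2 scale (SE 0.168, edgeR adjusted p = 0.00673), 1.96-fold, again under the fold threshold for a call. Its fitted change in R1 cells was -0.03 (SE 0.167, edgeR adjusted p = 0.961). The response of R1 cells minus that of HEK293T cells was -0.998 (SE 0.237), with an unadjusted p of 0.00115 and an edgeR adjusted p of 0.22. Without R1 −Met+Hcy replicate 3 this difference was -1.05 and was called (edgeR adjusted p = 0.0299), as were 1.38% of all genes, and DESeq2 on all libraries gave -0.99 with an adjusted p of 0.0023. With the trend of each library on GC content and length removed the difference was -0.57 (edgeR adjusted p = 0.426), and with that removal and the library left out it was -1.06 (edgeR adjusted p = 0.00161). JUN was lower in R1 cells by 2.44-fold in +Met (log2 fold change -1.29, SE 0.17, edgeR adjusted p = 0.00102) and by 4.87-fold in −Met+Hcy (log2 fold change -2.28, SE 0.175, edgeR adjusted p = 2e-05).

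**Figure D2:**
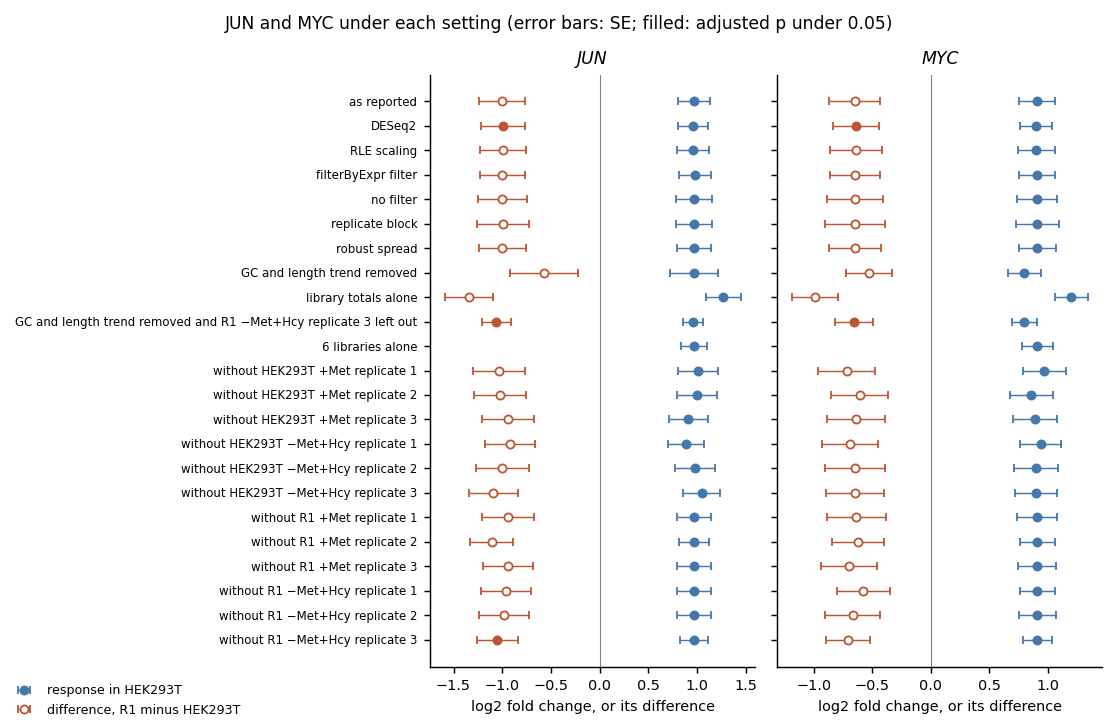
Log2 fold change of JUN (left) and MYC (right) between media in HEK293T cells (blue) and the difference of the responses, R1 minus HEK293T (red), on the horizontal axis, under each setting of the analysis (rows). Error bars are SE and filled points have an adjusted p under 0.05. The HEK293T response is filled in every row, between 0.89 and 1.27 for JUN and between 0.80 and 1.20 for MYC, while the difference is filled in 3 rows for JUN and 2 for MYC.

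JUNB and JUND, the other JUN proteins, were measured at lower levels than JUN. Their spread (SD over the mean) in R1 cells was 4.39 and 11.1% in +Met, against 16.1% for JUN, and 44.2 and 40.9% in −Met+Hcy, where replicate 3 stood below the others, against 4.4% for JUN. JUND was at 27.7, 19.5 and 22.5 CPM in HEK293T cells in +Met and at 48.5, 36.7 and 36.2 CPM in −Met+Hcy. In R1 cells it was at 24.2, 20.7 and 25.8 CPM in +Met and at 22.3, 24.9 and 10.2 CPM in −Met+Hcy. The media did not overlap in HEK293T cells, and R1 −Met+Hcy replicate 3 gave the lowest value of all. JUND did not pass the test between media in HEK293T cells (log2 fold change 0.50, SE 0.261, edgeR adjusted p = 0.287), but did without R1 −Met+Hcy replicate 3, which does not enter that comparison and acts through the shared estimate of the spread (0.50, edgeR adjusted p = 0.0401), as did 27.7% of all genes. JUND was lower in R1 than in HEK293T cells in −Met+Hcy (log2 fold change -1.13, SE 0.264, edgeR adjusted p = 0.0146). Without that library the difference was -0.87 (edgeR adjusted p = 0.00412, a test that 30.3% of all genes then passed), under the fold threshold, and with the GC and length trend removed it was -0.29 (edgeR adjusted p = 0.628). With both the trend removed and that library left out it was -1.17 and was called (edgeR adjusted p = 2.83e-05). JUNB was at 8.51, 6.92 and 7.22 CPM in HEK293T cells in +Met and at 10.9, 12.75 and 11.1 CPM in −Met+Hcy. In R1 cells it was at 11.02, 10.4 and 10.1 CPM in +Met and at 7.73, 9.16 and 3.41 CPM in −Met+Hcy. In CPM the −Met+Hcy libraries of JUNB were thus all higher in HEK293T and all lower in R1 cells, and with TMM-scaled libraries the HEK293T groups overlapped. Neither change passed the test (log2 fold change 0.32 in HEK293T cells with an edgeR adjusted p of 0.542, and -0.63 in R1 cells with an edgeR adjusted p of 0.622). Between the lines in −Met+Hcy JUNB was at -0.83 (SE 0.281, edgeR adjusted p = 0.0698). In R1 −Met+Hcy replicate 3, JUNB and JUND were at 0.40 and 0.43 times the mean of replicates 1 and 2, whereas JUN and MYC were at 0.93 and 0.94 times theirs. The canonical transcripts of JUNB and JUND have the highest GC content of the 9, 64.9 and 69.9%, and those of MYC and JUN have 48.8 and 56.1%. FOS (52.8% GC) was at 0.43 times the mean of replicates 1 and 2, and EGR1 (55.3%) and MYCN (56.9%) were at 0.95 and 1.52 times. For FOS and EGR1 replicate 3 lay between replicates 1 and 2, which were 11.3-fold and 8.48-fold apart, so their ratios say little. FOSL2 (53.3%) and FOSL1 (58.7%) had no count in replicate 3, and FOSL1 had only 2 and 4 counts in replicates 1 and 2. Whether these ratios go with GC content was not tested.

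FOS and EGR1 varied more between R1 libraries than between media. FOS is encoded at chr14:75278826-75282230 and EGR1 at chr5:138465479-138469303, both on the plus strand. FOS was at 0.563, 1.44 and 0.796 CPM in HEK293T cells in +Met and at 1.96, 2.12 and 2.43 CPM in −Met+Hcy. In R1 cells it was at 8.18, 0.815 and 6.63 CPM in +Met and at 1.24, 14.04 and 3.3 CPM in −Met+Hcy. EGR1 was at 3.07, 2.26 and 2.33 CPM in HEK293T cells in +Met and at 8.91, 5.17 and 4.34 CPM in −Met+Hcy. In R1 cells it was at 25.0, 4.18 and 28.5 CPM in +Met and at 3.86, 32.7 and 17.3 CPM in −Met+Hcy. Both genes were low in the same R1 libraries, +Met replicate 2 and −Met+Hcy replicate 1, where they lay within the range of the HEK293T libraries, and the other 4 R1 libraries lay above every HEK293T library. The highest R1 library exceeded the lowest of its group by 10.03-fold in +Met and 11.3-fold in −Met+Hcy for FOS, and by 6.81-fold and 8.48-fold for EGR1. These libraries hold 15 and 17 counts of FOS and 77 and 53 counts of EGR1, against 141 and 213 counts of FOS in the highest ones. Over the 6 R1 libraries Pearson's r between the log2 CPM of FOS and EGR1 was 0.96, as a description of points that share libraries and depth. SRF, the factor that binds CArG boxes, was at 82.9, 55.1 and 83.2 CPM in R1 cells in +Met and at 65.0, 80.1 and 36.1 CPM in −Met+Hcy. The rho with GC content was -0.34 and -0.24 in the R1 libraries low in FOS and EGR1. In the 4 others it was 0.46, 0.18 and 0.24 in +Met replicates 1 and 3 and −Met+Hcy replicate 2, and -0.74 in −Met+Hcy replicate 3. Without −Met+Hcy replicate 3, rho was negative in the libraries low in both genes and positive in the high ones. With it, the high libraries held both signs. The rho of −Met+Hcy replicates 1 and 2 was each taken against the other alone. The part of the GC trend in these levels was not tested.

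**Figure D3:**
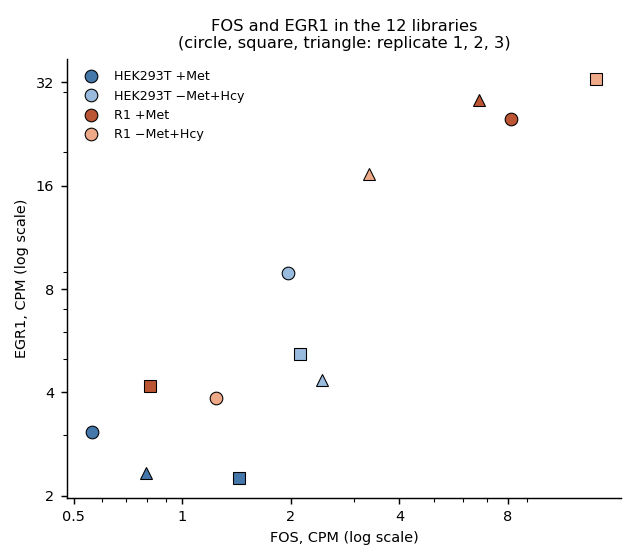
EGR1 against FOS, both in CPM on log axes, in the 12 libraries; colours are groups and circles, squares and triangles are replicates 1, 2 and 3. The R1 libraries +Met replicate 2 and −Met+Hcy replicate 1 lie among the HEK293T libraries, at 4.18 and 3.86 CPM of EGR1, and the other R1 libraries lie at 17.3 to 32.7 CPM.

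EGR1 was called higher in R1 than in HEK293T cells in +Met, with a log2 fold change of 2.53 (SE 0.741, edgeR adjusted p = 0.0494), close to the threshold. The call was kept in 12 of 22 alternatives and in 4 of the 12 fits that left out 1 library, over which the log2 fold change ran from 2.15 to 3.01 and the edgeR adjusted p from 0.0145 to 0.167. In −Met+Hcy EGR1 had a log2 fold change of 1.55 (SE 0.704, edgeR adjusted p = 0.165). FOS had log2 fold changes of 2.12 in +Met (SE 0.871, edgeR adjusted p = 0.146) and 1.45 in −Met+Hcy (SE 0.827, edgeR adjusted p = 0.264) and was not called. The FOS value in −Met+Hcy was 0.16 without R1 −Met+Hcy replicate 2, and that in +Met was called in 2 of 22 alternatives, the fit to 6 libraries alone (edgeR adjusted p = 0.0456) and the fit without R1 +Met replicate 2 (edgeR adjusted p = 0.0481). Between media, the log2 fold changes in HEK293T cells were 0.94 for FOS (SE 0.87, edgeR adjusted p = 0.569) and 0.95 for EGR1 (SE 0.726, edgeR adjusted p = 0.476), although the −Met+Hcy libraries were all higher. In R1 cells they were 0.28 for FOS (SE 0.799) and -0.03 for EGR1 (SE 0.681), so that the SE alone leaves room for a change in either direction.

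FOSL1 and FOSL2, the FOS proteins FRA1 and FRA2, were measured at low counts, FOSL1 at or near 0 in HEK293T cells. FOSL1 had 3, 1 and 0 counts in HEK293T cells in +Met, 0, 0 and 1 in −Met+Hcy, 14, 17 and 7 in R1 cells in +Met and 2, 4 and 0 in −Met+Hcy. R1 cells in +Met thus held the highest counts. No fold is given between media in HEK293T cells, where no library exceeds 3 counts. In +Met the summed counts were 4 in HEK293T and 38 in R1 cells, a ratio of 9.22 with a 95% exact interval of 3.32 to 35.6 that covers counting error only, and the edgeR adjusted p was 0.172. FOSL1 was called higher in R1 cells in +Met without R1 −Met+Hcy replicate 3 (edgeR adjusted p = 0.0356), as were 14.3% of all genes in either direction, and in the fit to 6 libraries alone (edgeR adjusted p = 0.0397). In R1 cells the −Met+Hcy libraries were all below the +Met libraries (log2 fold change -2.47, SE 1.15, edgeR adjusted p = 0.622). FOSL2 had 25, 24 and 29 counts in HEK293T cells in +Met, 37, 29 and 29 in −Met+Hcy, 21, 13 and 13 in R1 cells in +Met and 24, 21 and 0 in −Met+Hcy. Its R1 libraries in +Met were all below the HEK293T libraries, with a log2 fold change of -1.11 (SE 0.828, edgeR adjusted p = 0.432). Without R1 −Met+Hcy replicate 3, in which FOSL2 had no count, the value was also -1.11 and passed the test (edgeR adjusted p = 0.0192), as did 32.7% of all genes.

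Between media in HEK293T cells, 0 of the 9 genes were called, against 4.63% of all genes, and 2 (JUN and MYC) passed the adjusted p alone, against 7.03%. These were also the 2 with an unadjusted p under 0.05, and DESeq2 called 0. Shares here are of edgeR calls or of libraries without overlap, and the share of all genes called by DESeq2 was not counted. The −Met+Hcy libraries were all higher in CPM for 7 of the 9, against 38.6% of all genes, and for 5 with TMM-scaled libraries, against 24.7%. In R1 cells 0 genes were called, against 0.00583% of all genes, 1 (JUNB) had an unadjusted p under 0.05 and DESeq2 called 0. R1 −Met+Hcy replicate 3, which raised the common dispersion, is part of this comparison, and without it 0 of the 9 were called as well. The share of all genes called in R1 cells without that library is not given. There the −Met+Hcy libraries were all higher for MYC, against 5.22% of all genes, and all lower for JUNB and FOSL1, against 4.87%. The difference between the responses was called for 0 genes, against 0.0583%, with 3 (JUN, MYC and JUNB) at an unadjusted p under 0.05, and DESeq2 called 0. Between the lines, 4 genes were called in +Met (MYCN and EGR1 higher in R1, MYC and JUN lower), against 7.66% of all genes (4.71% higher and 2.95% lower), and 4 in −Met+Hcy (MYCN higher, MYC, JUN and JUND lower), against 9.95% (5.29% higher and 4.66% lower). These comparisons share libraries, so their values are not independent of each other.

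**Figure D4:**
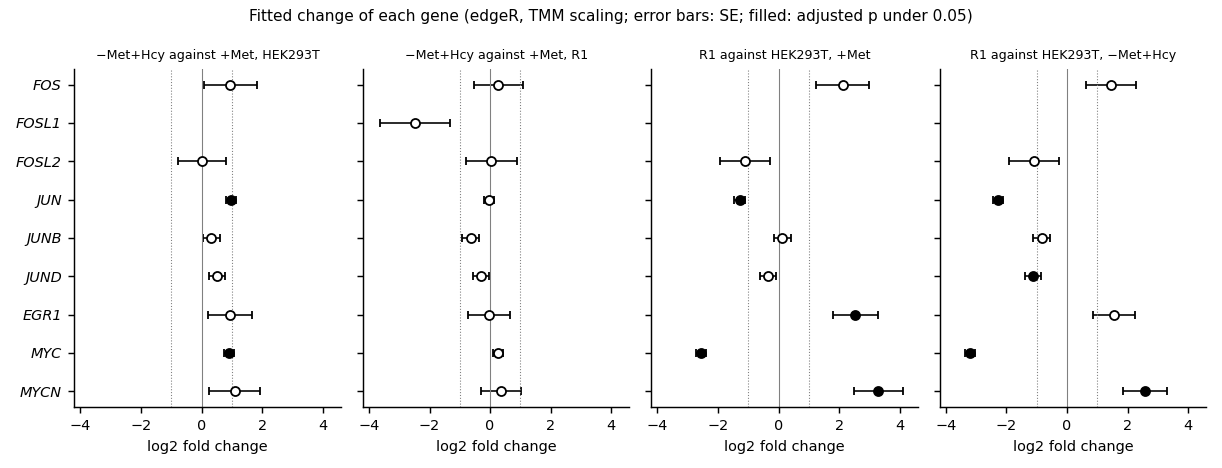
Fitted log2 fold change (horizontal axes) of each gene (rows) in 4 comparisons, with SE as error bars; filled points have an edgeR adjusted p under 0.05 and dotted lines mark the fold threshold. FOSL1 is drawn only where a group exceeds 3 counts in both arms, that is in R1 cells between media. In HEK293T cells JUN and MYC are filled at 0.97 and 0.91, and between the lines MYC and JUN lie to the left and MYCN to the right in both media.

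Lists of related genes were counted in the same fits. Beside them, 3.04% of all genes were called higher and 1.59% lower between media in HEK293T cells, and the shares between the lines are those given for the 9 genes. Of 11 other AP-1 proteins (10 tested), 2 rose in HEK293T cells in −Met+Hcy. ATF3, a stress-induced partner of JUN, went from 17.0 ± 1.05 to 114.1 ± 16.5 CPM (log2 fold change 2.45, SE 0.285, edgeR adjusted p = 0.000958), and JDP2, which dimerizes with JUN and represses AP-1 sites, from 2.87 ± 0.419 CPM to 10.7, 10.5 and 8.82 CPM in the 3 libraries (1.51, SE 0.355, edgeR adjusted p = 0.0261). ATF3 was lower in R1 than in HEK293T cells in both media, at 8.31 ± 2.67 CPM in +Met (log2 fold change -1.38, edgeR adjusted p = 0.00982) and 10.6 ± 3.9 CPM in −Met+Hcy (-3.47, edgeR adjusted p = 5.12e-05). JDP2 was also all higher in R1 cells in −Met+Hcy, at 11.7 ± 5.45 against 6.05 ± 0.592 CPM, as were 5.22% of all genes. Its log2 fold change there was 1.05 (edgeR adjusted p = 0.622), and 0.49 without R1 −Met+Hcy replicate 3. The median log2 fold change of the list between media was 0.42 in HEK293T cells, against 0.03 for all genes, and -0.07 in R1 cells, against -0.02. Of 6 EGR family members and NAB corepressors (5 tested) and of 6 SRF family members and cofactors, 0 were called by edgeR in any comparison. Of 12 MYC and MAX network genes, 1 fell in HEK293T cells: MLXIPL, the glucose-responsive partner of MLX, went from 6.4 ± 0.213 to 2.31 ± 0.857 CPM (log2 fold change -1.77, SE 0.34, edgeR adjusted p = 0.0107) and was higher in R1 than in HEK293T cells in −Met+Hcy (1.78, edgeR adjusted p = 0.00499). MAX itself was at 36.4 ± 1.09 and 49.3 ± 2.6 CPM in HEK293T cells and was not called in any comparison.

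Of 21 other immediate-early genes, 3 rose in HEK293T cells in −Met+Hcy, against 3.04% of all genes, and 6 were lower in R1 than in HEK293T cells in −Met+Hcy, against 4.66%. In R1 cells 0 were called between media, where 1 of all 17162 genes was, both with all 12 libraries. The median log2 fold change between media was 0.50 in HEK293T and 0.09 in R1 cells. KLF10, a zinc finger repressor induced by TGF-beta, was at 18.5, 22.3 and 21.9 CPM in HEK293T cells in +Met and 112.5, 113.4 and 106.9 CPM in −Met+Hcy (log2 fold change 2.11, SE 0.254, edgeR adjusted p = 0.00115). BTG1, an antiproliferative gene, went from 16.3 ± 1.13 to 54.1 ± 2.33 CPM (log2 fold change 1.44, SE 0.252, edgeR adjusted p = 0.00681). IER2 was at 16.6 ± 0.777 and 54.0 ± 9.42 CPM, without overlap, and passed only without R1 −Met+Hcy replicate 3 (1.40, edgeR adjusted p = 0.0975 with it and 0.000881 without). Without that library 8 of the 21 were called in HEK293T cells, as were 10.3% of all genes. In −Met+Hcy, KLF10 (-1.39, edgeR adjusted p = 0.00347), IER2 (-1.89, edgeR adjusted p = 0.0208) and BTG1 (-1.12, edgeR adjusted p = 0.0113) were lower in R1 than in HEK293T cells, and BTG1 was at -0.85 without R1 −Met+Hcy replicate 3. Between media in R1 cells KLF10 was at 25.3 ± 3.2 and 41.8 ± 12.5 CPM, without overlap, and IER2 and BTG1 overlapped. The log2 fold change of KLF10 there was 0.81 (edgeR adjusted p = 0.622), and 0.41 without R1 −Met+Hcy replicate 3. SGK1, a serum-induced kinase, was lower in R1 cells in +Met (-1.35, edgeR adjusted p = 0.0142).

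Of 14 MAPK feedback genes, 1 rose in HEK293T cells in −Met+Hcy, 2 were lower in R1 than in HEK293T cells in +Met, and in −Met+Hcy 3 were lower and 1 higher. DUSP10, a phosphatase of JNK and p38, went from 2.96 ± 0.0324 to 13.2 ± 1.14 CPM in HEK293T cells (log2 fold change 1.85, SE 0.273, edgeR adjusted p = 0.00316). DUSP1, a phosphatase of the same kinases and of ERK, was at 33.5 ± 7.06 and 103.1 ± 5.43 CPM in HEK293T cells (1.33, edgeR adjusted p = 0.0791, and 0.000134 without R1 −Met+Hcy replicate 3) and at 13.3 ± 2.07 and 13.1 ± 8.73 CPM in R1 cells. It was lower in R1 cells in +Met (-1.68, edgeR adjusted p = 0.0278) and in −Met+Hcy (-3.06, edgeR adjusted p = 0.00113). SPRY1, an inhibitor of growth factor signalling, was lower in R1 cells in both media (-1.01 and -1.04, edgeR adjusted p = 0.00955 and 0.00614, the second at -0.97 without that library). ETV1, an ETS factor, was higher in R1 cells in −Met+Hcy (1.80, edgeR adjusted p = 0.0176). Of 12 MAP kinases that act on AP-1 and 12 genes of FOS, JUN and MYC degradation, 0 were called by edgeR in any comparison, and without R1 −Met+Hcy replicate 3 edgeR called 2 and 1 of them in HEK293T cells between media, against 10.3% of all genes.

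Genes that textbooks give as targets did not move as 1 group. Of 16 MYC targets, 0 rose and 3 fell in HEK293T cells in −Met+Hcy, in which MYC itself was higher, 3 were lower in R1 than in HEK293T cells in +Met and 2 in −Met+Hcy. NPM1, a nucleolar histone chaperone, was at 4133.2, 4256.7 and 4541.6 CPM in HEK293T cells in +Met and at 1656.4, 1883.5 and 2017.6 CPM in −Met+Hcy (log2 fold change -1.51, SE 0.351, edgeR adjusted p = 0.0249). NOP56, a core protein of box C/D snoRNPs, went from 770.3 ± 19.0 to 445.6 ± 2.99 CPM (-1.08, SE 0.171, edgeR adjusted p = 0.00427). In +Met, NPM1 (-1.33, edgeR adjusted p = 0.0317), NOP56 (-1.17, edgeR adjusted p = 0.00168) and FBL, the methyltransferase of the same particles (-1.34, edgeR adjusted p = 0.00202), were lower in R1 cells. The median of the list between media in HEK293T cells was -0.41, against 0.03 for all genes, and between the lines in +Met it was -0.77, against 0.02. In −Met+Hcy, FBL (-1.12, edgeR adjusted p = 0.00385, and -0.96 without R1 −Met+Hcy replicate 3) and RRS1, a ribosome assembly factor (-1.34, edgeR adjusted p = 0.0068), were lower in R1 cells. Of 14 AP-1 targets, 9 were tested and 0 were called between media in either line with all libraries. Without R1 −Met+Hcy replicate 3, MMP9 (1.85, edgeR adjusted p = 0.027) and PLAU (2.49, edgeR adjusted p = 0.0198) were called higher in HEK293T cells in −Met+Hcy. Both had low counts, and 10.3% of all genes were then called in either direction. In +Met, TGFB1, the secreted cytokine, was at 62.7 ± 8.24 CPM in R1 cells and 5.48 ± 1.04 CPM in HEK293T cells (log2 fold change 3.16, SE 0.287, edgeR adjusted p = 8.87e-05). The protease genes MMP9 and PLAU were higher in R1 cells in +Met at low counts, MMP9 with 1, 2 and 2 counts in HEK293T and 22, 24 and 21 in R1 cells (edgeR adjusted p = 0.00477) and PLAU with 1, 0 and 7 counts in HEK293T and 42, 39 and 17 in R1 cells (edgeR adjusted p = 0.0294). HMOX1, the heme-degrading enzyme, was lower in R1 cells in +Met (-1.72, edgeR adjusted p = 0.00486). In −Met+Hcy TGFB1 was higher (3.31, edgeR adjusted p = 5.69e-05) and HMOX1 lower (edgeR adjusted p = 0.00708, with a log2 fold change of -1.17 without R1 −Met+Hcy replicate 3) in R1 cells.

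The genes most like each called member were sought by Pearson's r of log2 CPM over the 11 libraries other than R1 −Met+Hcy replicate 3, among 11640 genes (11641 for MYCN). For MYC these were SLC16A1, ZNF296 and XPOT (r = 0.99 each), and for JUN they were ZNF134, SLC1A5 and ZNF227 (r = 0.99 each). JUND was most like KIAA2013 (0.97), ZBTB45 and FRAT2 (0.96 each), EGR1 most like SH3KBP1 (0.98), SIN3A and DNAJC5 (0.95 each), and MYCN most like HAPLN3 (0.98), KCNMB4 and SDSL (0.97 each). An r over 0.9 was shared by 514 genes for MYC, 414 for JUN, 200 for MYCN, 73 for JUND and 30 for EGR1, so a pattern like that of MYC or JUN was common. With R1 −Met+Hcy replicate 3 included, r fell to 0.08 for EGR1 with DNAJC5 and for MYCN with HAPLN3, and was 0.83 to 0.99 for the genes named for MYC and JUN. Among the 9 genes, JUN and MYC had an r of 0.98 over the 11 libraries and -0.06 over the 6 R1 libraries, and FOS and EGR1 had 0.91 and 0.96. These points share libraries and the 4 groups, and the values are descriptions.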

How the data were processed

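Total RNA of 12 libraries was sequenced, and per the labels the authors quantified the reads with kallisto 0.48.0 against GRCh38. The deposited values are estimated counts, which the authors summed per Ensembl gene and made whole numbers, without scaling for library size. The annotation release and the strandedness are not given in the sources used here. Libraries of MB468 and R8 were left out.

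Genes with a summed count under 10 were excluded, as in the study. Counts of all 17162 remaining genes were fitted in R 4.3.3 with edgeR 4.0.16 (quasi-likelihood test, TMM, 1 mean for each of 4 groups, 12 libraries, Benjamini-Hochberg adjustment), in 5 comparisons. The 12 libraries share 1 estimate of the spread. DESeq2 1.42.0 was an alternative, as were RLE scaling, 2 other filters, the replicate number as a block, a robust spread, a call by adjusted p alone, the 6 libraries of a comparison alone, each library left out, and removal of each library's loess trend (span 0.3) on GC content and length, for which 15857 genes (92.4%) had values. Library totals alone, the trend removal without R1 −Met+Hcy replicate 3 and the adjusted p alone without that library were chosen after the data were seen. Levels are CPM of column sums. Intervals cover counting error only, and a count of 3 was the floor.

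The 9 genes and the 10 lists (124 genes) were chosen with earlier results of these data known. All 9 are named, and of each list the genes called in any comparison, at most the 4 with the largest change, in addition to SRF and MAX, which were chosen after their values were seen. Like genes needed a mean log2 CPM over 2. Where a symbol has several entries, the one with the highest summed count was used.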

Additional observations from a re-analysis of the deposited data

Results flagged for a closer look

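By CPM, JUNB was the only one of the 9 genes whose libraries all moved in opposite directions in the 2 lines. With TMM-scaled libraries its HEK293T groups overlapped. In CPM the −Met+Hcy libraries were all higher than the +Met libraries in HEK293T cells (10.9 to 12.75 against 6.92 to 8.51) and all lower in R1 cells (3.41 to 9.16 against 10.1 to 11.02). The difference between the responses was -0.95 on the log2 scale (SE 0.396) and did not pass the test over all genes (edgeR with Benjamini-Hochberg, adjusted p = 0.484). Over the alternatives it ran from -1.26 to -0.43, with adjusted p-values from 0.0312 to 0.791. The change in R1 cells was -0.63 as reported and 0.09 with the GC and length trend removed. With that removal and R1 −Met+Hcy replicate 3 left out it was -0.32. In CPM, 38.6% of all genes were all higher in HEK293T cells and 4.87% all lower in R1 cells, and the share with both was not counted.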

How the results depend on the processing

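Between the lines, MYC was called under all alternatives in both media and JUN under all in −Met+Hcy, and JUN under 21 of 22 in +Met (-0.93 with library totals alone). In HEK293T cells between media JUN and MYC passed the adjusted p under 22 of 22 alternatives, and the number of genes called was 0 as reported, 2 with library totals alone, 2 with the adjusted p alone, 3 with the adjusted p alone and R1 −Met+Hcy replicate 3 left out, and 0 to 1 over the 12 fits that left out 1 library (JUN at 1.01 without HEK293T +Met replicate 1 and 1.05 without −Met+Hcy replicate 3). The difference between the responses was called for 0 genes as reported, for 1 (JUN) with the trend removed or the adjusted p alone and R1 −Met+Hcy replicate 3 left out, and for 0 to 1 over the fits that left out 1 library. Between the lines the called number was 4 in each medium, 6 in +Met and 2 in −Met+Hcy in the fit to 6 libraries alone, and, over the fits that left out 1 library, between 2 and 6 in +Met and between 2 and 5 in −Met+Hcy. The 6 in +Met came without R1 −Met+Hcy replicate 3, where 14.3% of all genes were called. For the other settings of this section the share of all genes is not given, so their counts cannot be set against it. MYCN and EGR1 in +Met were lost without HEK293T +Met replicate 2 or 3 or without R1 +Met replicate 1 or 3, and EGR1 also without HEK293T +Met replicate 1 or any HEK293T −Met+Hcy replicate. In −Met+Hcy, JUND was lost without HEK293T −Met+Hcy replicate 1 or R1 −Met+Hcy replicate 3, and MYCN without any HEK293T −Met+Hcy replicate, R1 +Met replicate 1 or 3, or R1 −Met+Hcy replicate 2. The causes were not tested.

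With the replicate number as a block, 2 genes were called between the lines in +Met (MYC and JUN; EGR1 2.48, adjusted p = 0.0975, and MYCN 3.34, adjusted p = 0.0536 in edgeR with Benjamini-Hochberg). Deviations of same-numbered libraries correlated with r from -0.72 to 0.60 over 18 pairs, against -0.76 to 0.77 over 36 pairs with different numbers. These ranges overlap and the pairs share libraries, so they cannot decide whether the numbers pair the samples. Under the block the sign turned for FOS (-0.10), FOSL2 (-0.11) and EGR1 (0.07) between media in R1 cells, for FOSL2 in HEK293T cells (-0.02) and for its difference (-0.08).

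Other reversals were all of changes that had not passed the test. With library totals alone they were FOSL2 in the difference (-0.25) and JUND between the lines in +Met (0.02). With the GC and length trend removed they were FOSL2 in HEK293T cells (-0.10), JUN (0.39), JUNB (0.09), JUND (0.89) and EGR1 (0.35) in R1 cells and JUND in the difference (0.19). With R1 −Met+Hcy replicate 3 left out as well they were FOSL2 in HEK293T cells (-0.10), and JUND (0.02) and MYCN (0.00) in R1 cells. Leaving out 1 library gave -1.02 to 0.77 for FOS, -0.55 to 0.63 for FOSL2, -0.14 to 0.03 for JUN and -0.66 to 0.45 for EGR1 in R1 cells, -0.14 to 0.14 for FOSL2 in HEK293T cells, and in the difference -1.80 to 1.31 for FOSL1, which rests on 0 to 3 counts in HEK293T libraries, and -0.56 to 0.62 for FOSL2. Of the numbers called in lists, 94 of 1100 moved by over 1.5 times. Depth limits FOSL1 and MYCN.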
